A study of Mus musculus with 18 samples.

Results

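Transcript levels of 41 genes for cytosolic and mitochondrial chaperones, their cochaperones and 2 heat shock factors were compared in mouse small cell lung cancer cell lines before and after p53 restoration. The genes were taken by name from the table of 25239 genes and not by a cut on their values, although the list was chosen with earlier results of these data known. They comprise the HSP90 and HSP70 families, J-domain proteins, small heat shock proteins, the mitochondrial and cytosolic chaperonins, prefoldin, and regulators of these machines. All 41 were present, and all 41 were among the 12828 genes that had 1 TPM (transcripts scaled to a fixed library total of 1e+06) or more in no fewer than 3 samples and were tested.

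RNA was sequenced from 18 samples, 1 for each combination of 3 cell lines of Type D (named 4711-1, 4711-18 and 4716-11), 3 sgRNAs and 2 p53 states. Type D is the study's name for lines that lyse some days after p53 returns. Every cell line came from a tumour started with Cre adenovirus in a mouse carrying Rb1 flox/flox and Rbl2 flox/flox alleles, a restorable Trp53 XTR/XTR locus and Rosa26 FlpO-ER, so all groups lack Rb1 and Rbl2, and their silenced Trp53 can be turned back on. Control cells received vehicle (ethanol), and Restored cells received 500 nM 4-hydroxytamoxifen (4-OHT), which activates FlpO-ER and thereby re-expresses Trp53, for 72 h. Lentiviral Cas9 was delivered with sgBgal, a control against the bacterial β-galactosidase gene, or with sgPpia#3.2 or sgPpia#4.1 against Ppia, the gene for cyclophilin A. Each of the 6 groups therefore held 3 samples, 1 per line, and the lines were the only replicates. Cyclophilin A was described by the study as reduced rather than lost in the selected cells, and no group in this series received 4-OHT without carrying the Trp53 XTR allele, so the drug and the return of p53 cannot be told apart here.

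HSP70 proteins bind short hydrophobic stretches of unfolded polypeptides in a cycle driven by ATP, J-domain proteins deliver the substrate and trigger hydrolysis, and nucleotide exchange factors such as the BAG proteins reset the cycle. HSP90 then matures kinases, steroid receptors and many other signalling proteins, including p53 itself, with the help of cochaperones. Chaperonins enclose a substrate in a chamber. In mitochondria the chamber is made by Hspd1 (HSP60) with the lid Hspe1 (HSP10), and in the cytosol by the ring complex CCT, which folds actin and tubulin handed over by prefoldin. Heat shock factor 1 (Hsf1) induces many of these genes through heat shock elements, inverted repeats of GAA and TTC.

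Upstream sequences are shown for Dnajb6 and Cct5, a member that rose and one that fell in the results below, for Hspd1 and Hspe1, which share an upstream region, and for the inducible pair Hspa1a and Hspa1b. RefSeq promoter windows on GRCm38.p6, each holding 250 bases before an annotated start and 50 after it, were at hand for 34 of the 41 members. Both strands were searched for the 2-unit heat shock element (GAANNTTC or TTCNNGAA), for a 3-unit form in which GAA and TTC alternate at a spacing of 2 bases, and for the E-box (CACGTG) and the CCAAT box (CCAAT or ATTGG). By construction every 3-unit element also contains the 2-unit one. In the sequences below the 250 bases before the start are printed 5′ to 3′ on the gene's strand, except for the shared Hspd1-Hspe1 region, and capitals mark these motifs.
Dnajb6 (chr5:29735648-29735897, plus strand): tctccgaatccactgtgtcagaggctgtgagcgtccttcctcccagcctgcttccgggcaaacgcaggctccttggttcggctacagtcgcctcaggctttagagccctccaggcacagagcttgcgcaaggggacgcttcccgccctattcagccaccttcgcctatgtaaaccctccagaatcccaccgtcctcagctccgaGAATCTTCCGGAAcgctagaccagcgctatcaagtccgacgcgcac
Hspd1-Hspe1, between the starts (chr1:55087933-55088147, plus strand): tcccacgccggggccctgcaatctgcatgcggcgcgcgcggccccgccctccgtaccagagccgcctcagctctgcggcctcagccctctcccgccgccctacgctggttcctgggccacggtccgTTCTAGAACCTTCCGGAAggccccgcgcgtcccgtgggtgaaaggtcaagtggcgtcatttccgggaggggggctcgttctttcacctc
Cct5 (chr15:31601847-31602096, minus strand): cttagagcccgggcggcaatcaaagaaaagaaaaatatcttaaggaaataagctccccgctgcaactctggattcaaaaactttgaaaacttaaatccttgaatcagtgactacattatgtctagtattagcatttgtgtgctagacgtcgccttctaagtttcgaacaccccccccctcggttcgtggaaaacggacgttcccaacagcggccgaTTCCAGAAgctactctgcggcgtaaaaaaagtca
Hspa1a (chr17:34972157-34972406, minus strand): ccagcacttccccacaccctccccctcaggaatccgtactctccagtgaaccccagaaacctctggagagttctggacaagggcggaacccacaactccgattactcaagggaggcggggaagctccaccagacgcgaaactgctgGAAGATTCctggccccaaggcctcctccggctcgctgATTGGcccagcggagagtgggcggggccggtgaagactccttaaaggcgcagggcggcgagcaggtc
Hspa1b (chr17:34959239-34959488, minus strand): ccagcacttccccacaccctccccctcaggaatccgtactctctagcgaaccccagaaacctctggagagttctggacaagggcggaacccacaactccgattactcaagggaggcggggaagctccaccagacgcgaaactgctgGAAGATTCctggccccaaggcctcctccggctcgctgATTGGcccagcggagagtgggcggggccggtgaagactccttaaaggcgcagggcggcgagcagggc
Dnajb6, the member with the most clearly separated rise below, carried a 3-unit element close to the printed start. Dnajb6 and Cct5 each had 2 windows, of which 1 is printed. The 3-unit element lay in both Dnajb6 windows, whereas the Cct5 window not printed held no heat shock element. Hspd1 and Hspe1 are transcribed in opposite directions. The nearest pair of annotated starts lay 216 bases apart, and the run of capitals lies between them, upstream of both, while the other annotated Hspd1 start lay at chr1:55088243, past the start of Hspe1 on the plus strand. Hspa1a and Hspa1b, the inducible HSP70 pair, matched at 247 of 250 upstream bases (98.8%). Their transcripts are also near copies of each other, so how reads were divided between them is uncertain. Whether reads that match both were counted at all is unknown, which limits their levels and their sum. The 2-unit element occurred in 15 of the 34 members (44.1%), against 17.0% of all 27025 genes with a window, and the 3-unit element in 4 (Dnajb6, Hspd1, Hspe1 and Hsph1; 11.8%), against 0.662%. Those 4 held no common direction. Dnajb6 rose and Hspd1 fell in the averaged results below, and Hspe1 and Hsph1 were not called in the main fit. The CCAAT box was held by 16 members (47.1%) and 41.1% of genes, and the E-box by 4 members (11.8%) and 8.09% of genes. These matches describe the printed window and do not show that any factor binds there.

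Re-expression of the targeted gene was seen in every pair of samples, with Trp53 at 5.45 to 8.41 TPM in Control and 181 to 236 TPM in Restored libraries. Ppia lay at 1551 to 2849 TPM with sgBgal, at 658 to 1233 TPM with sgPpia#3.2 and at 1191 to 1952 TPM with sgPpia#4.1. Some libraries stood apart. The sgPpia#3.2 Control library of 4711-18 had the lowest correlation with its line (r = 0.9733, others 0.9841 to 0.9965) and held Mki67, a proliferation marker, at 23.0 TPM where the other Control libraries held 62.1 to 99.6 TPM. It also had the most Lonp1 (680 TPM) and Hspa5 (1495 TPM) of the 18. In both sgPpia#4.1 libraries of 4711-1 the immediate early gene Atf3 stood at 31.4 and 6.05 TPM, against 285 to 768 TPM in the other 4 libraries of that line. Of 7 neuroendocrine markers 4 reached 1 TPM, with sums of 15.8 to 30.3 TPM in Control and 15.5 to 37.2 TPM in Restored libraries. Calca and Chga of that list stayed under 1 TPM in every library, although the labels call the cells small cell lung cancer. Fibroblast markers were under 1 TPM for all 7 genes, with sums of 0.423 to 1.22 TPM in Control and 0.547 to 1.19 TPM in Restored libraries. Of the leukocyte markers, Ptprc, Csf1r and Cd3e stayed under 1 TPM, at 0.669 TPM or less. Cd68, a lysosomal protein of macrophages, moved with the p53 state without overlap, at 2.0 to 7.13 TPM in Control and 21.3 to 39.8 TPM in Restored libraries, and its part in the results was not tested. Cd14 overlapped, at 124 to 515 TPM in Control and 89.8 to 229 TPM in Restored libraries. Of 4 endothelial markers 1 reached 1 TPM (sums 0.142 to 1.51 and 0.362 to 1.11 TPM), and of 5 lung epithelial markers 4 did (sums 2.2 to 49.1 and 1.94 to 8.59 TPM).

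The chaperone genes made up a sizeable part of the transcriptome. Together the 41 took 1.65 to 1.96% of all TPM in Control and 1.45 to 1.62% in Restored libraries, and the share was lower after restoration in each of the 9 pairs of one line and sgRNA. TPM divides reads by transcript length, so levels can be compared between genes. Hsp90ab1 (2722 to 4569 TPM) and Hspa8 (3049 to 4327 TPM), the constitutive cytosolic HSP90 and HSP70, were the most abundant members and their ranges overlapped. Hsp90aa1 came next (490.3 to 1061 TPM), and the mitochondrial pair Hspd1 and Hspe1, the 8 CCT subunits, Hspa9 and Stip1 lay between 258 and 835 TPM. The inducible Hspa1a (1.23 to 3.71 TPM) and Hspa1b (5.33 to 15.8 TPM) lay far below, and the small heat shock proteins Hspb1 and Hspb8 ranged from 0.0363 to 40.4 TPM and from 0.234 to 53.1 TPM according to the line.

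After p53 restoration, averaged over the 3 sgRNAs, 12 of the 41 members fell (29.3%) and 4 rose (9.76%). The falls took in 6 of the 8 CCT subunits, 1 of the 2 mitochondrial chaperonin subunits, 2 of the 3 HSP90 genes and 2 of the 4 HSP90 cochaperones, and each called change was under 2-fold in this average and under each single sgRNA. The largest falls were those of Cct3, Hspd1, Cct5 and Stip1, and the rises were those of Dnajb1, Dnajb6, Bag3 and Hspa14. All genes went the other way on balance, with 27.9% higher and 11.2% lower at the same threshold, an adjusted p under 0.05 by limma on log2(TPM + 1) with Benjamini-Hochberg adjustment over the 12828 genes. The median log2 fold change was -0.07 over the members and 0.17 over all genes. This contrast sets 9 Restored against 9 Control samples that come from only 3 lines.

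With cell line as a block, 18 members were lower (43.9%) and 7 higher (17.1%), against 19.3% and 44.1% of all genes. That fit takes the 3 sgRNAs of a line as separate samples. With the 3 averaged within each line and state before fitting, and the line still a block, 11 members were lower (26.8%) and 2 higher (4.88%), against 13% and 33% of all genes. Of the 9 members called only with the block, Pfdn4 kept its call on the line means, and Hspa8, Hsph1, Dnaja2, Cct7, Pfdn5, Vbp1, Hspb1 and Hspb8 lost it. Hspa14, Bag3, Cct6a and Pfdn1, called without the block, lost theirs too. Rescaling the libraries by the median of ratios to a common reference sets the median gene near 0 by construction. With it the median of all genes moved from 0.17 to -0.0049, and the members called were 18 lower (43.9%) and 1 higher (2.44%), against 18.9% and 18.1% of all genes. Of all genes called, 71.4% were higher as deposited and 48.8% after rescaling. An estimate below 0.17 therefore lies under that of the median gene. In bulk RNA, fewer cells of one kind and less RNA per cell cannot be told apart.

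**Figure D1:**
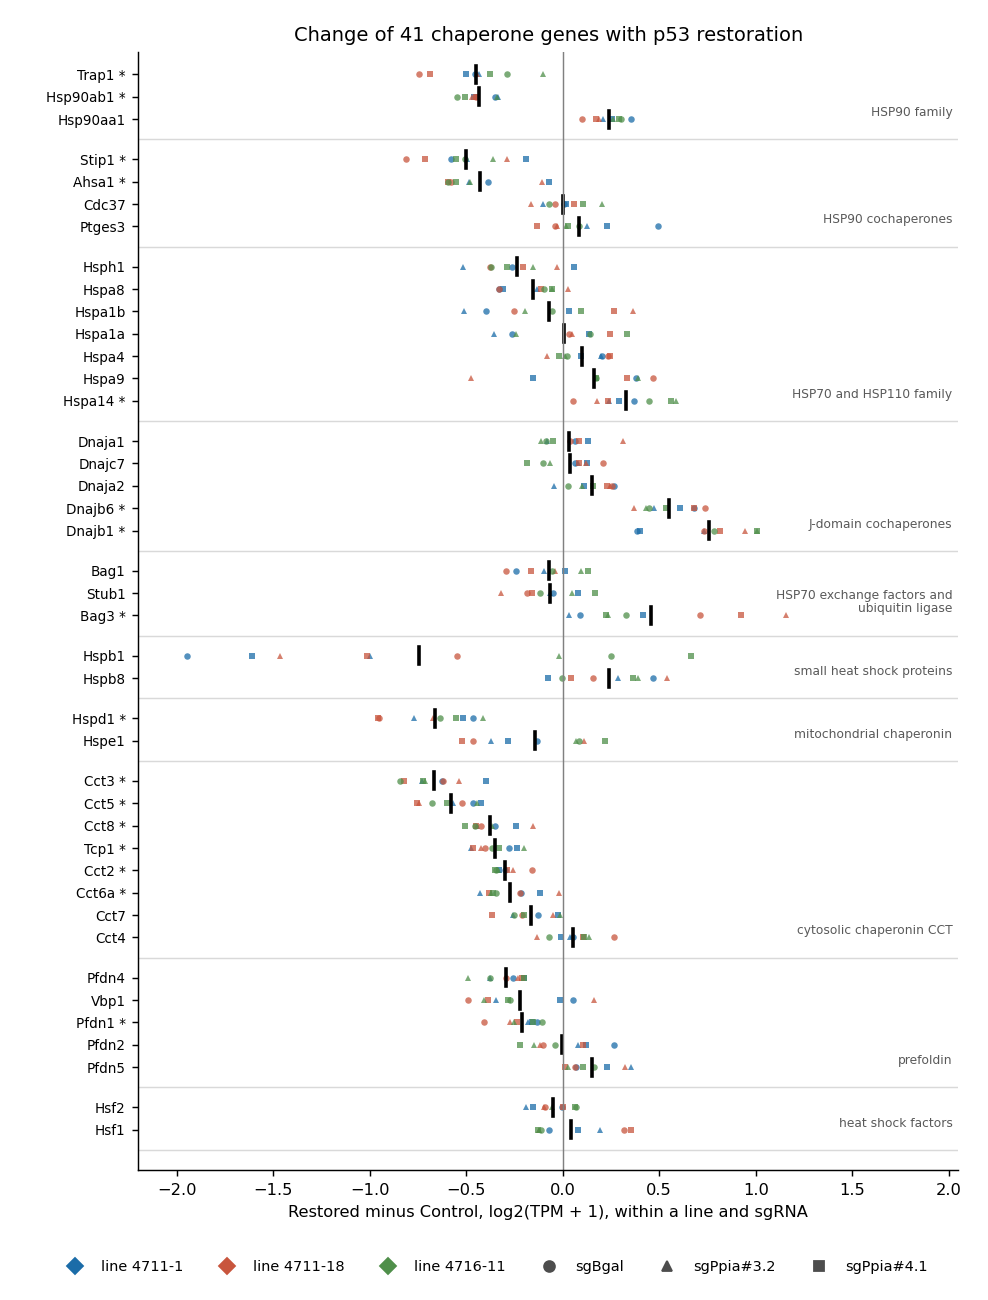
Difference (Restored minus Control within a line and sgRNA, log2(TPM + 1) scale) of the 41 members grouped by role, with a point for each of the 9 pairs, a bar at the mean, and an asterisk for members called by limma. The 12 members that fell include 6 of the 8 CCT subunits, and Dnajb1 has the highest mean (0.76).

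Restored lay below Control in 9 of 9 pairs for 14 members (34.1%) and above it in 9 of 9 for 6 (14.6%), against 12.8% and 30.8% of all genes. The 14 were Hsp90ab1, Trap1, Stip1, Ahsa1, Hspd1, Tcp1, Cct2, Cct3, Cct5, Cct6a, Cct7, Cct8, Pfdn1 and Pfdn4, and the 6 were Hsp90aa1, Hspa14, Dnajb1, Dnajb6, Bag3 and Pfdn5. All 9 Restored libraries lay below all 9 Control libraries for Hsp90ab1, Hspd1, Tcp1 and Cct5 (9.76% of members, against 3.06% of genes) and above them for Dnajb6 alone (2.44%, against 8.12% of genes).

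Within single sgRNAs, where 3 samples face 3, fewer members passed. With sgBgal, Dnajb6 rose by 0.62 ± 0.15 (SE) on the log2 scale and Hsp90ab1 (-0.45), Hspd1 (-0.69) and Cct5 (-0.56) fell, which is 1 higher and 3 lower against 9.86% and 3.96% of all genes. With sgPpia#3.2 only Cct5 passed (-0.59 ± 0.13, limma adjusted p = 0.012), against 7.62% of genes higher and 2.39% lower. With sgPpia#4.1 Dnajb6 rose (0.61) and Hsp90ab1 (-0.47) and Cct5 (-0.59) fell, against 7.16% and 3.14% of genes. The blocked fit called 1 member higher and 12 lower with sgBgal, against 30.2% and 12% of all genes. It called 2 and 8 with sgPpia#3.2, against 25.3% and 8.86% of genes, and 2 and 10 with sgPpia#4.1, against 24.3% and 10.8%. After rescaling without the block, 0 members were higher and 9 lower with sgBgal (831 and 848 of all genes), so Dnajb6 lost its call there. The counts were 0 and 6 with sgPpia#3.2 (725 and 572 of all genes) and 1 and 7 with sgPpia#4.1 (690 and 621). Fitted on the 6 samples of each comparison alone, no member passed, where 4.9% of genes were higher and 1.8% lower with sgBgal, 2.56% and 0.437% with sgPpia#3.2, and 2.21% and 1.07% with sgPpia#4.1.

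Among the HSP90 genes, the constitutive Hsp90ab1 and the mitochondrial Trap1 fell and the inducible Hsp90aa1 was not called. Hsp90ab1 stood at 3844, 4569 and 4055 TPM in the sgBgal Control libraries of 4711-1, 4711-18 and 4716-11 and at 3008, 3345 and 2774 TPM in their Restored counterparts. With sgPpia#3.2 the Control libraries held 3669, 3983 and 3532 TPM and the Restored ones 2905, 2870 and 2788 TPM. With sgPpia#4.1 the values were 3749, 4352 and 4082 TPM before and 2722, 3183 and 2873 TPM after. The Control and Restored libraries did not overlap under any sgRNA, and the mean change was -0.44 ± 0.07 (SE; limma adjusted p = 0.00039). Trap1, an HSP90 of the mitochondrial matrix, ranged over 78.7 to 126 TPM (median 109) in Control and 55.3 to 98.9 TPM (median 77.8) in Restored libraries, which overlap between lines while every pair fell, by 0.45 ± 0.14 on average (limma adjusted p = 0.019). Hsp90aa1 ran from 490.3 to 917 TPM (median 685) in Control and from 558 to 1061 TPM (median 828) in Restored libraries. It was higher in 9 of 9 pairs by 0.24 ± 0.14 on average, without passing the test (adjusted p = 0.19 by limma, 0.12 with the block), and by 0.04 after rescaling.

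Of the 4 HSP90 cochaperones, Stip1 and Ahsa1 fell. Stip1, which bridges HSP70 and HSP90, fell by 0.50 ± 0.13, from 501 to 835 TPM (median 669) in Control to 361 to 614 TPM (median 505) in Restored libraries. Ahsa1, which speeds the HSP90 ATPase, fell by 0.43 ± 0.11, from 150 to 240.0 TPM (median 215) to 132 to 185 TPM (median 144). Both overlapped between groups and both were lower in 9 of 9 pairs, with limma adjusted p of 0.0086 for Stip1 and 0.0054 for Ahsa1. The kinase-specific Cdc37 (0.0014 ± 0.10) and the p23 protein Ptges3 (0.09 ± 0.10) did not pass.

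**Figure D2:**
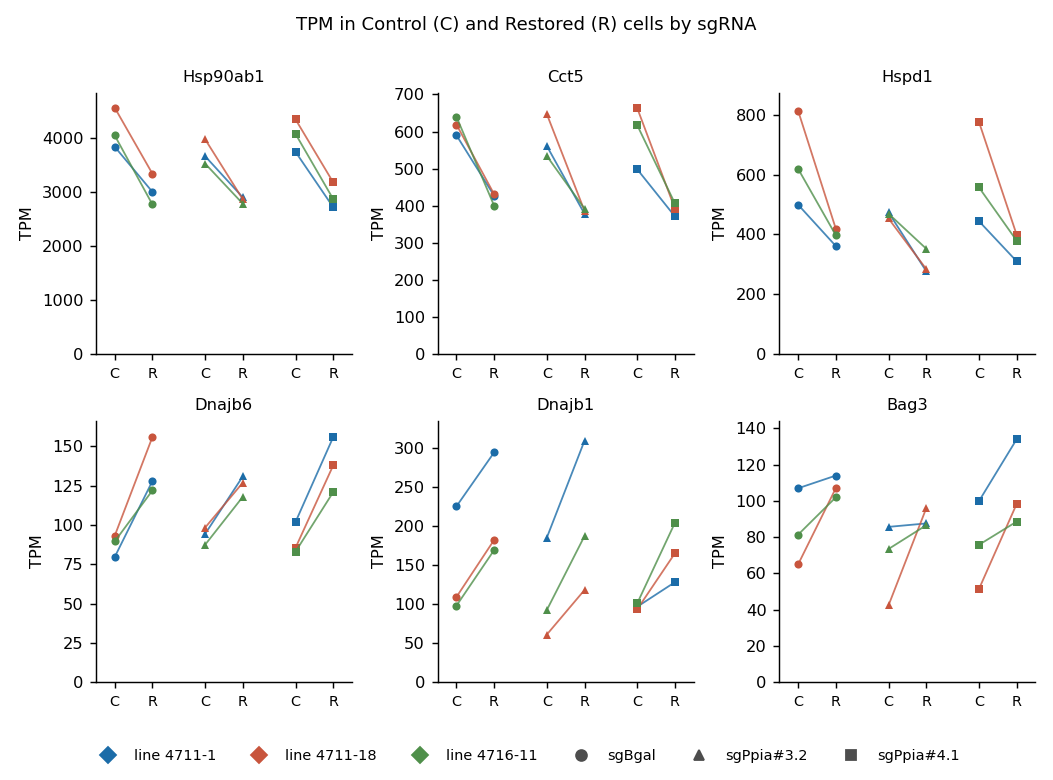
TPM of selected members in each of the 18 libraries, with Control (C) and Restored (R) of one line and sgRNA joined by a line, colours for the cell lines and symbols for the sgRNAs. Hsp90ab1, Hspd1 and Cct5 lie lower and Dnajb6 lies higher in all 9 Restored libraries than in all 9 Control libraries.

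Of the 7 HSP70 and HSP110 genes only Hspa14, a ribosome-associated HSP70, was called. It rose by 0.33 ± 0.11 (limma adjusted p = 0.024), from 24.8 to 39.3 TPM (median 29.0) to 30.6 to 43.4 TPM (median 40.04), higher in 9 of 9 pairs, and the call was lost after rescaling (0.13). Hspa8, the constitutive cytosolic HSP70, held 3173 to 4327 TPM (median 3508) in Control and 3049 to 3567 TPM (median 3228) in Restored libraries, a difference of -0.16 ± 0.08. It missed the threshold (adjusted p = 0.13 by limma) and passed it with the block (adjusted p = 0.021) and after rescaling. Hspa9, the mitochondrial HSP70 that also drives import, showed 0.16 ± 0.14 and turned to -0.04 after rescaling, and neither passed.

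No change passed for the stress-inducible HSP70 genes. Hspa1a stood at 2.74, 2.21 and 1.84 TPM in the sgBgal Control libraries of 4711-1, 4711-18 and 4716-11 and at 2.12, 2.29 and 2.14 TPM in the Restored ones. Hspa1b stood at 10.8, 11.4 and 8.77 TPM and then at 7.96, 9.45 and 8.41 TPM. The highest Hspa1b levels, 15.5 TPM in Control and 15.8 TPM in Restored cells, belonged to the sgPpia#4.1 libraries of 4711-1 named above as standing apart. Averaged over sgRNAs the estimates were 0.0081 ± 0.14 for Hspa1a, which turned to -0.12 after rescaling, and -0.07 ± 0.19 for Hspa1b. Hspa4 (0.10 ± 0.13), an HSP110-type exchange factor, did not pass and turned to -0.10 after rescaling. Its relative Hsph1 (-0.24 ± 0.11) passed only with the block (adjusted p = 0.024) and after rescaling (adjusted p = 0.0035).

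Dnajb6, a J-domain protein that suppresses aggregation, showed the best separated rise. With sgBgal the Control libraries of 4711-1, 4711-18 and 4716-11 held 79.7, 93.2 and 89.6 TPM and the Restored ones 128, 156 and 122 TPM. With sgPpia#3.2 the values were 94.4, 98.4 and 87.5 TPM before and 131, 127 and 118 TPM after, and with sgPpia#4.1 102, 85.6 and 83.1 TPM before and 156, 138 and 121 TPM after. No Restored library came as low as any Control library, the mean rise was 0.55 ± 0.08 (limma adjusted p = 0.00016), and it kept its call after rescaling (0.35). Dnajb1, the main J-domain partner of inducible HSP70, rose by 0.76 ± 0.24 (limma adjusted p = 0.024), from 61.0 to 225 TPM (median 97.9) to 118 to 309 TPM (median 182). The groups overlapped because 4711-1 started high, at 225 TPM with sgBgal and 185 TPM with sgPpia#3.2 but 96.6 TPM with sgPpia#4.1. All 9 pairs rose, and after rescaling the estimate of 0.56 no longer passed (adjusted p = 0.10) without the block. Dnaja2 (0.15 ± 0.07) passed only with the block (adjusted p = 0.043) and had a rescaled estimate of -0.05. Dnaja1 (0.03 ± 0.12) and Dnajc7 (0.04 ± 0.09) did not pass and had rescaled estimates of -0.17 and -0.16.

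Among the HSP70 exchange factors Bag3, which couples HSP70 to small heat shock proteins and selective autophagy, rose by 0.46 ± 0.16 (limma adjusted p = 0.035). With sgBgal it moved from 107, 65.0 and 81.4 TPM to 114, 107 and 102 TPM in 4711-1, 4711-18 and 4716-11. With sgPpia#3.2 it moved from 85.7, 42.4 and 73.5 TPM to 87.6, 95.9 and 86.6 TPM, and with sgPpia#4.1 from 99.9, 51.4 and 75.8 TPM to 134, 98.3 and 88.6 TPM. The 4711-18 pairs supplied the greatest steps. Without line 4711-18 the mean change was 0.22, and without its sgPpia#3.2 Control library alone it was 0.36, and neither passed, nor did the rescaled estimate of 0.26. Bag1 (-0.07 ± 0.09) and the ubiquitin ligase Stub1 (CHIP; -0.07 ± 0.15) did not pass.

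Of the mitochondrial chaperonin subunits Hspd1 fell and Hspe1 was not called. Hspd1, the HSP60 barrel, stood at 499, 813 and 619 TPM in the sgBgal Control libraries of 4711-1, 4711-18 and 4716-11 and at 361, 419 and 397 TPM in the Restored ones. With sgPpia#3.2 it went from 473, 453 and 469 TPM to 277, 284 and 352 TPM, and with sgPpia#4.1 from 444, 776 and 557 TPM to 310, 399 and 379 TPM. All Restored libraries lay below all Control libraries, and the mean fall was 0.66 ± 0.12 (limma adjusted p = 0.0007). The lid Hspe1, printed above with the same shared region, ranged over 393 to 800.1 TPM in Control and 322 to 697 TPM in Restored libraries, and its difference of -0.14 ± 0.20 did not pass. It was lower in both 4711 lines on average and higher in 4716-11, so its levels held no common direction.

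Within each library the ratio of Hspd1 to Hspe1 does not depend on scaling. It was 1.19, 1.17 and 0.978 in sgBgal Control and 0.949, 0.836 and 0.591 in sgBgal Restored cells of 4711-1, 4711-18 and 4716-11, and it was lower in 9 of 9 pairs, by 0.52 ± 0.18 (SD over 3 lines) on the log2 scale. The ratio of the mitochondrial HSP70 to HSP60, Hspa9 to Hspd1, was higher in 9 of 9 pairs, by 0.82 ± 0.13. It ran from 0.727 to 1.63 in Control and from 1.41 to 1.98 in Restored cells, and the Control value of 1.63 belonged to the sgPpia#3.2 library of 4711-18 that stood apart. With 3 lines an exact sign-flip test cannot go below p = 0.25, which is the value both ratios gave.

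A further 3 partner ratios were compared. Hsp90aa1 to Hsp90ab1 was 0.123 to 0.25 in Control and 0.195 to 0.365 in Restored libraries, higher in 9 of 9 pairs by 0.67 ± 0.07. Dnajb1 to Hspa8 was higher in 9 of 9 pairs by 0.92 ± 0.13, from 0.0192 to 0.052 to 0.0367 to 0.0865. Hspa8 exceeded Hspa1a plus Hspa1b by 164 to 488 times, and that ratio was lower in 6 of 9 pairs and higher in 3. Its size carries the limit on the reads of Hspa1a and Hspa1b given above. Of 48 exact two-sided tests over the 6 ratios none fell below 0.1, the smallest p that 3 against 3 allows, and the smallest Benjamini-Hochberg value was 0.369.

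**Figure D3:**
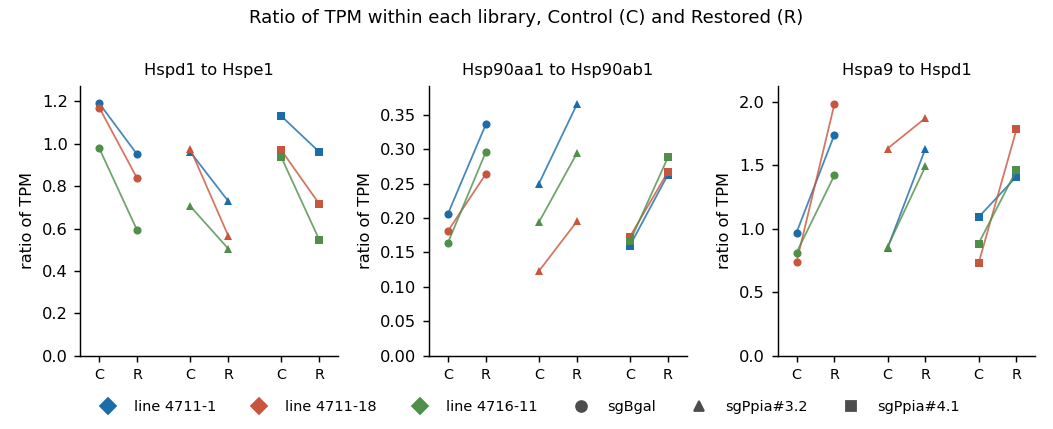
Ratio of TPM within each library for Hspd1 to Hspe1, Hsp90aa1 to Hsp90ab1 and Hspa9 to Hspd1, with Control (C) and Restored (R) of one line and sgRNA joined. The first ratio is lower and the other two are higher after restoration in 9 of 9 pairs.

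Of the 8 subunits of CCT, each present once per ring, 6 fell and Cct4 and Cct7 did not pass. Cct5 stood at 590, 619 and 640 TPM in the sgBgal Control libraries of 4711-1, 4711-18 and 4716-11 and at 427, 431 and 400 TPM in the Restored ones. With sgPpia#3.2 it moved from 561, 647 and 534 TPM to 378, 386 and 392 TPM, and with sgPpia#4.1 from 498, 663 and 617 TPM to 371, 392 and 406 TPM. Control and Restored libraries did not overlap, and Cct5 was the single member called under each sgRNA separately, with a mean of -0.58 ± 0.08 (limma adjusted p = 4.4e-05). Tcp1 (CCT1) went from 398 to 492 TPM to 302 to 372 TPM, also without overlap, a fall of 0.35 ± 0.07 (limma adjusted p = 0.0014). Cct3 fell most, by 0.67 ± 0.16, with 717 TPM in the sgPpia#4.1 Control library of 4711-18 against 352 TPM in that of 4711-1. Cct8 (-0.38 ± 0.09), Cct2 (-0.30 ± 0.09) and Cct6a (-0.27 ± 0.10) fell with overlap between groups and in 9 of 9 pairs each.

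Cct4 and Cct7 were the subunits not called. Cct4, the least abundant subunit in most Control libraries, held 259 to 326 TPM in Control and 269 to 368 TPM in Restored libraries, a difference of 0.05 ± 0.08 that turned to -0.15 after rescaling and passed in neither case. Cct7 showed -0.17 ± 0.14 (adjusted p = 0.39 by limma), lower in 9 of 9 pairs, and passed with the block (adjusted p = 0.026) and after rescaling (adjusted p = 0.047). The most abundant subunit exceeded the least abundant 1.71 to 2.5 times in Control and 1.47 to 1.92 times in Restored libraries, a ratio that was lower in 9 of 9 pairs by 0.41 ± 0.12 (SD over 3 lines; exact sign-flip p = 0.25).

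**Figure D4:**
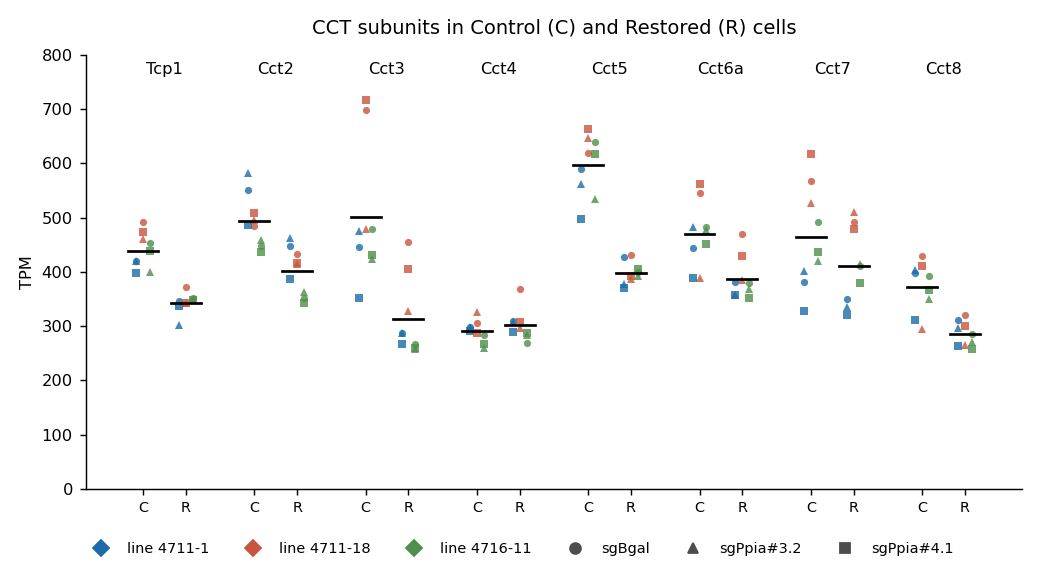
TPM of the 8 CCT subunits in Control (C) and Restored (R) cells of each line and sgRNA, with colours for lines, symbols for sgRNAs and a bar at the mean of 9 libraries. Cct5 falls from 498 to 663 TPM to 371 to 431 TPM, and Cct4 stays between 259 and 368 TPM throughout.

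Of the 5 prefoldin subunits, which hand nascent actin and tubulin to CCT, only Pfdn1 was called in the averaged fit without a block. It fell by 0.21 ± 0.07 (limma adjusted p = 0.029), from 217 to 272 TPM (median 234) to 170 to 235 TPM (median 210) with overlap. Pfdn4 (-0.29 ± 0.13) was also lower in 9 of 9 pairs and passed with the block (adjusted p = 0.00075) and after rescaling (adjusted p = 0.0026). On the line means with the block Pfdn4 passed (limma adjusted p = 0.043) and Pfdn1 did not (limma adjusted p = 0.11). Vbp1 (prefoldin subunit 3; -0.22 ± 0.11) was lower in 7 of 9 pairs and passed only with the block (adjusted p = 0.034) and after rescaling (adjusted p = 0.0043). Pfdn5, the most abundant at 236 to 372 TPM, was higher in 9 of 9 pairs (0.15 ± 0.08), passed with the block (adjusted p = 0.043), and turned to -0.05 after rescaling. Pfdn2 (-0.0064 ± 0.12) did not pass.

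Neither heat shock factor was called as deposited. Hsf1 lay at 50.4, 56.3 and 52.9 TPM in sgBgal Control and 48.0, 70.2 and 48.7 TPM in sgBgal Restored cells of 4711-1, 4711-18 and 4716-11. Its mean difference of 0.04 ± 0.10 did not pass and turned to -0.15 after rescaling. Hsf2 (-0.05 ± 0.06), a related factor, passed only after rescaling (-0.25, adjusted p = 0.017).

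Small heat shock proteins are holdases that keep unfolding proteins soluble without ATP. The 2 among the members, Hspb1 and Hspb8, differed far more between lines than between p53 states. Hspb1 (HSP27) stood at 40.4, 8.12 and 0.0363 TPM in the sgBgal Control libraries of 4711-1, 4711-18 and 4716-11 and at 9.72, 5.23 and 0.232 TPM in the Restored ones. With sgPpia#3.2 it went from 15.2, 7.76 and 0.366 TPM to 7.13, 2.17 and 0.349 TPM, and with sgPpia#4.1 from 20.6, 6.33 and 0.364 TPM to 6.06, 2.63 and 1.16 TPM. It was lower in all 6 pairs of the 4711 lines and in 1 of 3 pairs of 4716-11, where it stood at 1.16 TPM or less. Averaged over lines the difference was -0.74 ± 0.78 (adjusted p = 0.48 by limma, 0.030 with the block). Within lines the mean difference was -1.52 ± 0.31 in 4711-1, -1.01 ± 0.31 in 4711-18 and 0.30 ± 0.31 in 4716-11. Each line had 1 library per sgRNA and state, so these errors rest on the spread between 3 different sgRNAs and not on repeats of one condition, and the differences are given without a test.

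Hspb8, a partner of Bag3, had the reverse distribution. It stood at 53.1 TPM in sgBgal Control and 53.05 TPM in sgBgal Restored cells of 4716-11, and between 36.4 and 50.6 TPM under the other sgRNAs of that line. In the 4711 lines it ran from 0.234 to 1.36 TPM, so that no library of 4716-11 overlapped with them. The restoration estimate was 0.24 ± 1.20 (adjusted p = 0.89 by limma, 0.044 with the block).

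**Figure D5:**
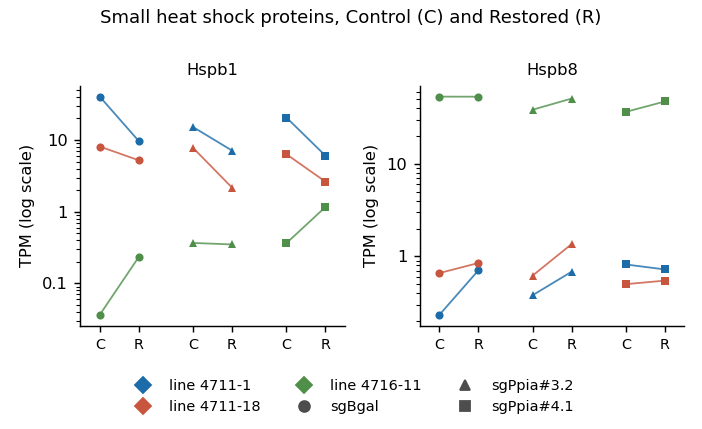
TPM of Hspb1 and Hspb8 on a log axis in Control (C) and Restored (R) cells of each line and sgRNA. Hspb8 lies above 36 TPM in line 4716-11 and below 1.4 TPM in both 4711 lines, and Hspb1 has the opposite order.

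The lines were compared next, with group and line as additive terms, and each line is 1 line represented by 6 libraries. Line 4711-18 exceeded 4711-1 for 11 members and was lower for 7 (30.1% and 19% of all genes). The higher ones included Cct7 (0.59 ± 0.07), Stub1 (0.54), Hspe1 (0.54), Cct3 (0.52), Pfdn4 (0.46) and Hspa9 (0.45), and the lower ones Hspb1 (-1.29), Dnajb1 (-0.73), Stip1 (-0.51), Bag3 (-0.51) and Dnaja1 (-0.37). Line 4716-11 differed from the mean of both 4711 lines for 4 members upwards and 8 downwards (16.7% and 35.9% of all genes). The greatest differences, both counted here, were those of Hspb8 (4.83) and Hspb1 (-2.74). Hspb8 reached 1 TPM in 7 libraries and Hspb1 in 13, nearly all from the lines where each is high, which let them pass the filter. Elsewhere they lay near or under the pseudocount of 1. It sets the size of these differences, which are given as a description and not as a test. Hspe1 (0.47), Hspa4 (-0.39) and Trap1 (0.33) followed in size. Rescaling turned that split to 8 upwards and 2 downwards, against 24.6% and 24.8% of all genes. For 4711-18 against 4711-1 it gave 8 higher and 11 lower, against 23.8% and 24% of all genes, so the balance of that comparison also depended on scaling.

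In a fit with the 3 sgRNAs of a line as its samples, the response to restoration did not pass a test of difference between lines for any member, against 2.1% of genes for 4711-18 against 4711-1 and 1.4% for 4716-11 against both 4711 lines. That fit takes the 3 sgRNAs, of which 2 target Ppia, as the replicates of a single line, so its errors and calls do not measure the spread between repeats of one condition. In it 2 members were higher and 10 lower in 4711-1, against 23.2% and 10.3% of all genes. The counts were 3 and 11 in 4711-18, against 36.9% and 14.1% of genes, and 3 and 11 in 4716-11, against 28.2% and 11.9%. Bag3 showed 0.18 ± 0.16 in 4711-1, 0.93 ± 0.16 in 4711-18 and 0.26 ± 0.16 in 4716-11, and the difference between the first pair was 0.75 ± 0.23, with the same limit on these errors.

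Targeting Ppia was examined to see whether chaperone transcripts depend on cyclophilin A, itself a folding enzyme. No member was called for sgPpia#3.2 or sgPpia#4.1 against sgBgal in Control or in Restored cells, nor for either difference in the restoration response. Across the genome 0% of genes were called by limma in each of these 6 comparisons as well. With the block 2 genes were called for sgPpia#3.2 in Control and 1 in Restored cells, none of them a member. At an unadjusted p under 0.05 without the block the members numbered 1, 0, 1 and 0 for sgPpia#3.2 and sgPpia#4.1 in Control and then in Restored cells, and 0 and 0 for the responses, and all genes 311, 27, 154, 68, 31 and 18. With the block the members numbered 5, 1, 6, 0, 0 and 0 in the same order, and all genes 1628, 162, 1108, 424, 175 and 80. The member without the block was Hsph1 both times, chosen here after its values were seen. It stood at 85.3, 118 and 93.5 TPM with sgBgal, 67.9, 55.6 and 62.3 TPM with sgPpia#3.2 and 67.6, 92.5 and 69.4 TPM with sgPpia#4.1 in Control cells of 4711-1, 4711-18 and 4716-11. In Restored cells it stood at 70.8, 90.6 and 72.1 TPM, 47.1, 54.4 and 55.9 TPM, and 70.4, 80.1 and 56.6 TPM. All sgPpia#3.2 values lay below all sgBgal values within each state. The difference was -0.66 ± 0.18 in Control and -0.56 ± 0.18 in Restored cells (limma adjusted p = 0.9998 and 1). Because both comparisons of a state share the same 3 sgBgal libraries, their values are not independent.

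The restoration estimates under sgBgal, sgPpia#3.2 and sgPpia#4.1, in that order, were -0.56, -0.59 and -0.59 for Cct5, and -0.69, -0.62 and -0.68 for Hspd1. They were -0.63, -0.38 and -0.49 for Stip1, and 0.62, 0.42 and 0.61 for Dnajb6. The median over the members was -0.17, -0.11 and -0.0068, against 0.19, 0.17 and 0.15 over all genes. The last member value was not stable, at -0.0747 to -0.0327 without single lines. After rescaling the 3 member medians were -0.39, -0.29 and -0.18. A difference that missed the threshold with 3 samples a group does not show that cyclophilin A leaves these genes alone.

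Other genes of protein quality control, from lists chosen with earlier results of these data known, were counted in the same averaged contrast. Of 40 tested genes for other cytosolic chaperones and cochaperones, 11 rose and 12 fell, and after rescaling 5 rose and 16 fell. Over all genes 27.9% rose and 11.2% fell in this contrast, and 18.1% and 18.9% after rescaling. The same shares apply to the lists that follow. Of the 41 members 9.76% rose and 29.3% fell. Cryab, the small heat shock protein αB-crystallin, rose by 2.54 ± 0.29, from 13.3 to 46.4 TPM to 99.8 to 312 TPM. Pdrg1, which belongs to a prefoldin-like complex, rose by 2.003 ± 0.20, and Dnajc9, a J-domain protein that also chaperones histones, rose by 1.56 ± 0.11, all without overlap of the groups. These 3 were named for the size of their change in sgBgal cells, and the 12 that fell are not named. Of 10 actin and tubulin genes, the clients of CCT and prefoldin, 5 fell and 1 rose, with a median of -0.57, and after rescaling 6 fell and 0 rose. Tubb5 (1142 to 1682 TPM in Control and 702 to 1188 TPM in Restored libraries) fell by 0.63 ± 0.12, Actg1 by 0.63 and Actb by 0.57. Proliferation genes were mixed in the same samples, with 5 of 14 lower and 2 higher (5 and 0 after rescaling) and a median of -0.02. Mki67 stood at 23.0 to 99.6 TPM in Control and 3.16 to 28.2 TPM in Restored libraries. The summed TPM of the list rose in some pairs, as from 4640 to 5304 with sgBgal in 4716-11. It fell in others, as from 3762 to 2526 with sgBgal in 4711-18. The part of the proliferation genes in the change of the CCT genes was not tested. Of the 10 immediate early genes, 1 rose.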

How the data were processed

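RNA from 18 samples of 3 mouse cell lines was sequenced (NEBNext Ultra II libraries, 1 per sample). The authors deposited a table of TPM, transcript levels per length scaled so that every column sums to 1e+06. The submitters' processing notes name bcl2fastq 2.17, HISAT2 and the builds mm10 and GRCm39, with no version for HISAT2. The counting step and annotation were not given in the sources used here. The table holds no counts, so depth is unknown and no counting intervals were computed.

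Groups were taken from the sample titles. Genes under 1 TPM in all but 2 or fewer samples were dropped, and log2(TPM + 1) of the other 12828 was fitted with limma 3.58.1 (R 4.3.3), using 6 group means over all 18 samples, and p-values were adjusted over all genes tested (Benjamini-Hochberg, threshold 0.05). Errors in the text are standard errors unless SD is given. The main fit has no block. The replicate numbers pair samples because they mark the same cell line in the labels, and samples of one line deviated together (45 pairs, mean r = 0.7285, lowest 0.5798), so the fit with the line as a block was run as well. Ratios were tested by exact permutation over samples or by exact sign flips over lines (scipy 1.17.1). Alternatives were the block, median-of-ratios rescaling, the pseudocount, the filter, the samples in the fit, limma's trended and robust variance, and leaving out lines. Promoter windows were RefSeq's on GRCm38.p6. The fitting step was tested on simulated data.

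All 41 members are accounted for. Values were given for members called in any contrast (up to 12 per contrast, by size), the 6 with the greatest change in sgBgal cells, the most abundant of each role and 12 members listed by name, and from other lists for up to 3 called genes. Some marker genes are not reported here. The members and lists were chosen with earlier results of these data known. Nothing says that the lines were cultured more than once per condition, so p-values measure the spread between these libraries.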

Additional observations from a re-analysis of the deposited data

How the results depend on the processing

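Results rest on 3 lines, on TPM without depth, and on a scaling that decides whether small changes count as rises, and the causes of the shifts given here were not tested. With the replicate block the members called rose from 4 to 13 with sgBgal, from 1 to 10 with sgPpia#3.2, from 3 to 12 with sgPpia#4.1 and from 16 to 25 in the averaged contrast. All genes called rose with it from 1773 to 5407, from 1284 to 4378, from 1322 to 4505 and from 5013 to 8137 in the same order. With rescaling they numbered 9, 6 and 8 under the single sgRNAs (1679, 1297 and 1311 of all genes), and with the block and rescaling together 19, 14, 16 and 28 in the order above (4944, 4125, 4257 and 7867 of all genes). Fitting only the 6 samples compared left 0, 0 and 0 called. With sgPpia#3.2, 4 members were called without a filter and 2 with limma's trended and robust variance (1267 and 1307 of all genes). At an adjusted p under 0.05 and a log2 fold change of at least 1, 0 members remained in each restoration contrast, 1 of 18 between 4711-18 and 4711-1, and 2 of 12 between 4716-11 and the 4711 lines. Those 2 were Hspb8 and Hspb1, with the limit given above. All genes at that threshold numbered 980, 738, 781 and 1146 in the restoration contrasts and 1146 and 682 between lines. Leaving out a line gave 0 to 1 members with sgBgal, 0 to 1 with sgPpia#3.2, 0 with sgPpia#4.1 and 6 to 12 in the averaged contrast, where the 6 were left without 4716-11. All genes called fell as well, to 487 to 973, 229 to 943, 283 to 823 and 3097 to 3825 in the same order. Line means with a block gave 13 members and 5909 of all genes.

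The median over the members moved with rescaling, with or without the block, to -0.39 with sgBgal, -0.29 with sgPpia#3.2, -0.18 with sgPpia#4.1 and -0.27 in the averaged contrast. For sgPpia#4.1 against sgBgal it became -0.0376 in Control and 0.0342 in Restored cells, for sgPpia#3.2 in Restored cells 0.0212, and for the sgPpia#4.1 response 0.0536. Without single lines it spanned -0.193 to -0.0925 with sgBgal, -0.139 to -0.0754 with sgPpia#3.2, -0.0747 to -0.0327 with sgPpia#4.1 and -0.128 to -0.0451 averaged. For sgPpia#4.1 against sgBgal it spanned -0.089 to -0.0588 in Control and -0.0834 to -0.0465 in Restored cells, for sgPpia#3.2 in Restored cells -0.131 to -0.0285, and for the sgPpia#4.1 response 0.0158 to 0.0382.

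In the averaged contrast Hspa1a turned to -0.12 and Hsf1 to -0.15 with rescaling, with or without the block, and neither had passed as deposited. Dnaja2 and Pfdn5, called only with the block as deposited, turned to -0.05 each with rescaling. Leaving out lines or libraries gave Hspa1a -0.0421 to 0.0923, Hspa1b -0.172 to 0.0371, Hspb8 -0.0022 to 0.272 and Hsf1 -0.0272 to 0.124. The ratio of Hspa8 to Hspa1a plus Hspa1b, sgPpia#3.2 against sgBgal in Restored cells, was 0.50 and became 0.46 when 1 was added to each TPM. The settings that leave out the sgPpia#3.2 Control library of 4711-18 or the sgPpia#4.1 libraries of 4711-1 were chosen after seeing the data. They gave 15 and 16 members in the averaged contrast, 4 and 4 with sgBgal, 1 with sgPpia#3.2 in the first and 2 with sgPpia#4.1 in the second (5200, 4997, 1866, 1918, 1224 and 1155 of all genes). Bag3 was lost in the first averaged contrast, and Hsp90ab1 lost its call with sgPpia#4.1 in the second. No member was called between sgRNAs or in their responses under any of these settings.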

Other observations

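The lists of other genes showed further changes in the averaged restoration contrast. Over all genes 27.9% rose and 11.2% fell in it, and 18.1% and 18.9% after rescaling. Of 12 endoplasmic reticulum chaperones 2 rose and 3 fell, and after rescaling 2 rose and 6 fell. Pdia3, a disulfide isomerase, rose by 0.51 ± 0.08, from 607 to 758 TPM in Control to 803 to 1062 TPM in Restored libraries without overlap. Hsp90b1, the HSP90 of that compartment, fell by 0.24 ± 0.09, while its HSP70, Hspa5, showed -0.29 ± 0.20 and did not pass as deposited. Of 31 proteasome subunits 0 rose and 3 fell (median -0.06), and after rescaling 12 fell. With the block 2 rose and 7 fell, against 44.1% and 19.3% of all genes. Of 14 genes for other mitochondrial protein quality control 2 rose and 2 fell (0 and 2 after rescaling), and Lonp1, a matrix protease, showed 0.26 ± 0.27 with its highest value, 680 TPM, in the sgPpia#3.2 Control library of 4711-18.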
